A study of Caenorhabditis elegans with 8 samples.

Results

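The transcripts of 33 synaptic and pan-neuronal genes were followed in whole *C. elegans* larvae of 8 strains that carry mutations in the splicing regulator gene *mbl-1*, the touch receptor neuron (TRN) selector gene *mec-3* or the TRN β-tubulin gene *mec-7*. The genes were chosen by name, as genes of synaptic vesicles, axonal transport, the neuronal cytoskeleton, neuronal channels and pan-neuronal markers, and no measured value is part of that rule. All 33 symbols matched 1 gene each among the 46778 genes counted. RNA came from whole L4 animals grown from synchronised hatchlings, with 2 libraries per strain and 16 in all. The study asked how MBL-1, the worm Muscleblind protein, acts on neurite growth and on TRN fate.

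The deletion *mbl-1(tm1563)* leaves part of the gene's exons in place and stood for loss of MBL-1 function. The *mec-7(u278)* mutant carries a neomorphic β-tubulin. The strain *mec-7(u278) mbl-1(tm1563)* has both alleles and is called the u278 double mutant here. The *mec-3* alleles are u184, used as a null, syb8382, which lacks the exon needed for the long isoform mec-3a, and unk206, which was built to make mec-3a alone. The eighth strain, *mbl-1(tm1563); mec-3(unk206)*, is called the unk206 double mutant. Every strain, the wild type included, carries a mec-17p::RFP reporter that marks the TRNs. It is the insertion uIs134 in *mec-3(syb8382)* and in *mec-3(u184)*, and the insertion uIs115 in the other strains, so that allele and insertion cannot be told apart where one of these is set against *mec-3(unk206)*.

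Neurons release transmitter when a vesicle SNARE protein zips together with partners in the plasma membrane, under the control of priming, clamping and calcium-sensing proteins at the active zone. Vesicle membrane is then recovered by endocytosis. Neuropeptides leave from dense core vesicles after proprotein convertases and carboxypeptidases have trimmed their precursors. Both kinds of vesicle reach the synapse along axonal microtubules on a kinesin motor. Many of these genes are used widely among the worm's neurons, of which the TRNs are a small class, and some of them also act in other tissues. In RNA from whole animals, less RNA per neuron and more RNA from other tissues cannot be told apart.

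The reads counted on genes numbered between 22296336 and 23180583 per library, so depth differed little. Levels are given as CPM (the counts of a gene scaled to a fixed library total) on 1 scale for all 16 libraries, normalised by TMM, which sets libraries to a common level for most genes. The libraries of *mbl-1(tm1563)*, *mec-7(u278)*, the u278 double mutant and the wild type were not strand-specific, with between 50.8% and 51.3% of stranded counts on the second strand, whereas the 4 *mec-3* strains had between 97.7% and 98.4% there. The 2 libraries of a strain differed far more in the first kind, where chi-square over genes, divided by its degrees of freedom, was between 94.2 and 228, than in the second, where it was between 7.08 and 17.03. For the alleles themselves, *mec-3* was at 0.135 and 0.132 CPM in *mec-3(u184)*, from 3 reads in each library, against 1.23 and 1.74 CPM in *mec-3(unk206)*. The count of *mbl-1* also covers exons that tm1563 leaves in place, so its 49.5 and 58.4 CPM in *mbl-1(tm1563)*, against 57.7 and 70.3 CPM in the wild type, do not check that label.

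All 33 genes were detected in every library and passed the filter on low counts in every comparison. Per kilobase of exon, *snb-1*, which codes for the vesicle SNARE synaptobrevin, had the highest median level over the libraries, at 170 CPM per kb. The neuropeptide-processing carboxypeptidase gene *egl-21* followed at 62.8 CPM per kb, the endophilin gene *unc-57* at 46.6 and the proprotein convertase gene *egl-3* at 38.2. The lowest were *rgef-1*, a neuronal Ras exchange factor, at 1.35 CPM per kb, and *unc-31*, a priming factor of dense core vesicles, at 1.36. The range of these transcripts was thus wide within 1 gene set. Genes of 1 role could lie far apart, as did the dense core vesicle and peptide genes *egl-21* and *unc-31*.

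Across the 16 libraries *snb-1* lay between 99.7 and 178 CPM, and the plasma membrane SNARE genes *unc-64* and *ric-4* between 29.6 and 57.3 CPM and between 20.3 and 63.1 CPM. Of the genes that govern fusion, *unc-18* lay between 40.05 and 144 CPM, the priming factor gene *unc-13* between 20.5 and 80.1 CPM and the inhibitor gene *tom-1* between 18.1 and 63.2 CPM. The clamp gene *cpx-1* lay between 7.01 and 11.9 CPM and the synaptotagmin gene *snt-1*, a calcium sensor, between 6.66 and 19.3 CPM. Among these, *snb-1* and *cpx-1* varied least. On the vesicle surface and at the active zone *rab-3* lay between 7.76 and 44.9 CPM, *aex-3* between 8.01 and 44.9 CPM and *unc-10* between 5.17 and 28.2 CPM. The scaffold gene *syd-2* lay between 11.66 and 44.3 CPM, *sng-1* between 2.6 and 8.48 CPM and *snn-1* between 2.71 and 10.4 CPM. All 6 of these genes thus spanned over 3-fold between single libraries.

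Of the endocytosis genes, the clathrin assembly gene *unc-11* lay between 55.8 and 92.4 CPM, *unc-57* between 65.2 and 102 CPM, *ehs-1* between 39.4 and 65.2 CPM and the synaptojanin gene *unc-26* between 17.6 and 42.04 CPM. The genes of dense core vesicles and peptides spread more, with *ida-1* between 43.6 and 266 CPM, *egl-3* between 62.1 and 300.4 CPM and *egl-21* between 57.8 and 334 CPM. The dense core vesicle gene *unc-31*, at 4.21 to 10.1 CPM, was the exception. Among the genes of transport and the cytoskeleton, *unc-104* lay between 14.2 and 72.3 CPM, the ankyrin gene *unc-44* between 167 and 505 CPM, *unc-33* between 19.6 and 72.5 CPM and *unc-76* between 45.4 and 59.8 CPM. The calcium channel genes *unc-2* and *cca-1* lay between 12.2 and 49.9 CPM and between 7.93 and 29.2 CPM, and the potassium channel genes *slo-1* and *shl-1* between 8.12 and 32.8 CPM and between 2.65 and 12.7 CPM. Each of the 4 channel genes had its lowest library in a *mec-3* strain, and these are also the strains with strand-specific libraries. Of the rest, *egl-8* lay between 57.4 and 361 CPM, *rgef-1* between 2.18 and 10.99 CPM and *unc-119*, a marker of all neurons, between 6.35 and 11.97 CPM.

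The genes differed in how much they varied among strains. The fold between the highest and the lowest strain mean was under 1.6 for 7 of the 33 genes and over 3 for 14. The steadiest was *unc-76*, a gene of axon growth and transport, whose strain means lay 1.25-fold apart, between 45.9 CPM in *mec-3(u184)* and 57.5 CPM in the unk206 double mutant. The endocytosis genes *unc-11*, *unc-57* and *ehs-1* spanned 1.37-fold, 1.42-fold and 1.41-fold. At the other end, *aex-3*, an exchange factor for the vesicle GTPase RAB-3, spanned 4.60-fold, *rab-3* itself 4.58-fold and *egl-8*, a phospholipase C beta of neuronal G protein signalling, also 4.60-fold. For 23 of the 33 genes the highest single library was the same, replicate 2 of *mbl-1(tm1563)*, and the highest strain mean was that of *mbl-1(tm1563)* for 19 genes and that of the wild type for 10. The lowest strain mean was in a *mec-3* strain for 30 genes, namely in the unk206 double mutant for 10, *mec-3(unk206)* for 9, *mec-3(syb8382)* for 8 and *mec-3(u184)* for 3. The *mec-3* strains are also those with strand-specific libraries, so genotype and kind of library cannot be told apart in this count.

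**Figure D1:**
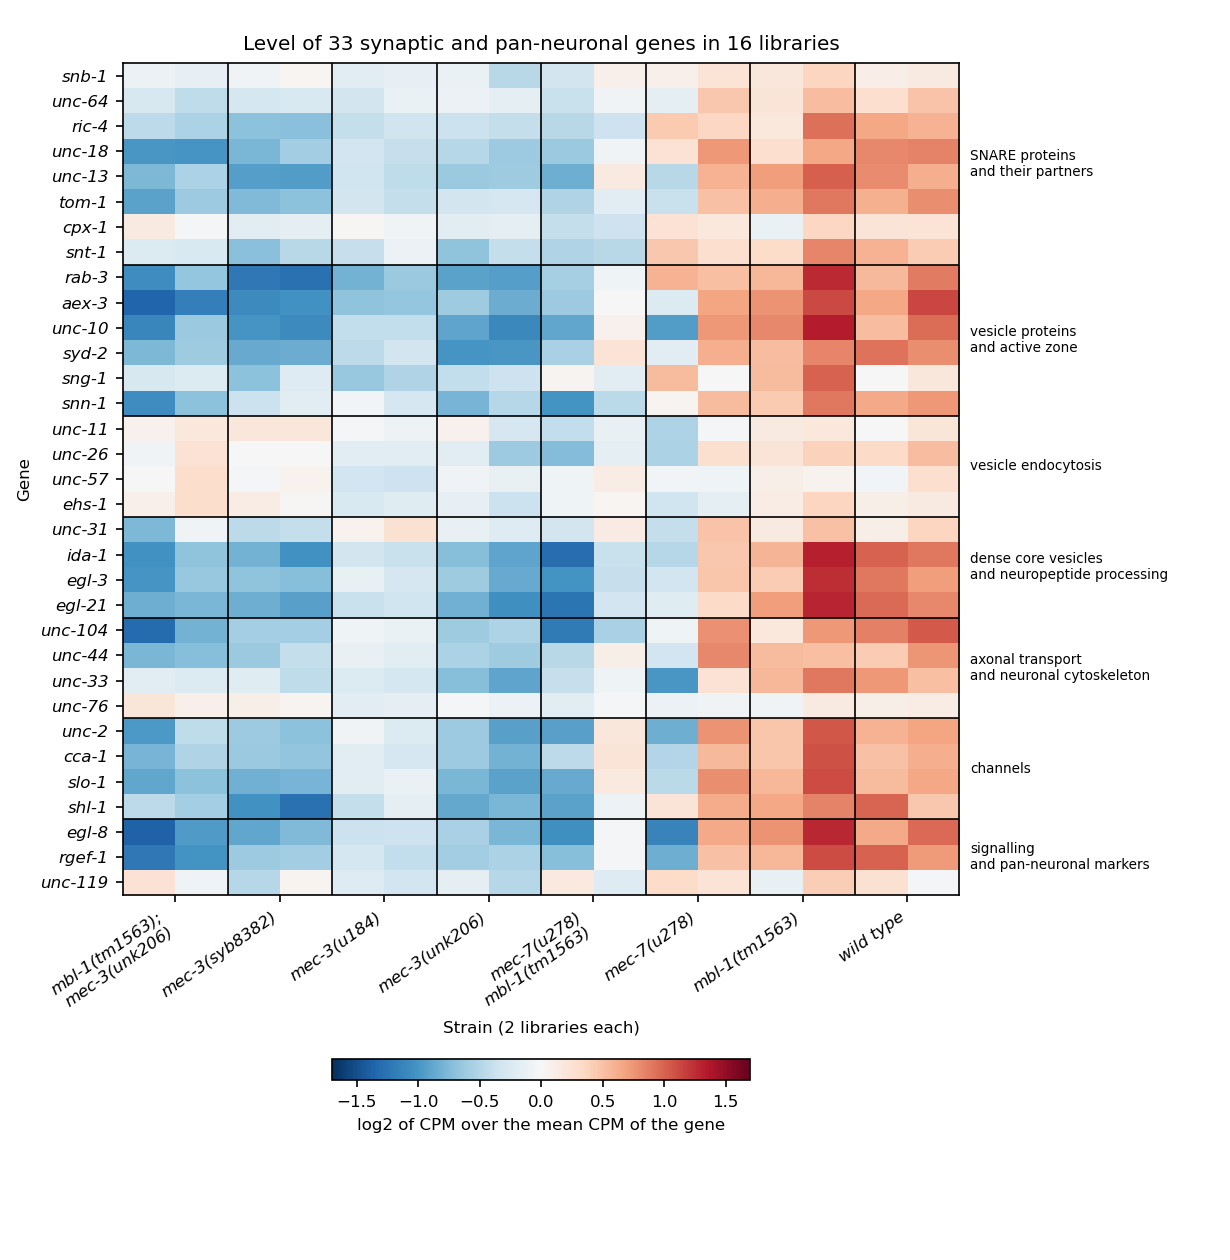
Level of each of the 33 genes (rows, grouped by role) in each of the 16 libraries (columns, 2 per strain), as the log2 of its CPM over its mean CPM in all libraries, from blue (lower) to red (higher). Most genes were lowest in the 4 *mec-3* strains on the left and highest in *mbl-1(tm1563)* and the wild type on the right, while *unc-11*, *unc-57*, *ehs-1* and *unc-76* changed little. The *mec-3* strains are also those with strand-specific libraries, so genotype and kind of library cannot be told apart here.

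In 3 of the 4 strains whose libraries were not strand-specific, the 2 libraries of the strain differed widely. In *mbl-1(tm1563)*, 31 of the 33 genes were higher in replicate 2 than in replicate 1, and their summed level was 2349 CPM in replicate 1 and 3076 CPM in replicate 2. In *mec-7(u278)* the sums were 1437 and 2399 CPM, and in the u278 double mutant they were 1127 and 1643 CPM. The median absolute difference between replicates was 0.80 on the log2 scale in *mec-7(u278)*, 0.56 in its double mutant and 0.45 in *mbl-1(tm1563)*, against 0.19 in the wild type and between 0.05 and 0.21 in the *mec-3* strains. Markers of other tissues differed between the same libraries. The summed level of 8 germline markers was 738 and 103 CPM in the 2 *mbl-1(tm1563)* libraries and 958 and 434 CPM in *mec-7(u278)*, where the library with the higher sum of the 33 genes had less germline RNA. In the wild type that library had more, with germline sums of 318 and 555 CPM. In *mec-7(u278)* the sums of body wall muscle (6433 and 10820 CPM), intestine (8518 and 20040 CPM) and hypodermis markers (1889 and 3840 CPM) went with the 33 genes. Those of pharyngeal muscle markers (408 and 111 CPM) did not. Whether the stage of the animals or the state of the germline sets these levels was not tested.

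The first question was whether loss of *mbl-1* changed the levels of these genes, and it was asked in 3 backgrounds that share no library. Counts per gene join all isoforms, so a change of splicing alone would not be seen here. The study names *egl-8* and *unc-104* among genes with altered splicing in *mbl-1* mutants. Against the wild type, *mbl-1(tm1563)* gave 0 calls among the 33 genes by edgeR's quasi-likelihood test at a Benjamini-Hochberg adjusted p under 0.05, where 0% of 14493 genes tested were called. DESeq2 also called 0 of the 33, and 0.138% of all genes. An unadjusted p under 0.05 was reached by 0 of the 33, against 1.11% of all genes. The median log2 fold change of the 33 genes was 0.08, and that of all genes was -0.03. Without replicate 2 of *mbl-1(tm1563)* the median of the 33 was -0.21, and without its replicate 1 it was 0.38. By role the medians ran between -0.05 for axonal transport and cytoskeleton and 0.24 for channels, against standard errors of single genes between 0.15 and 0.39.

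The lowest value belonged to *unc-104*, the kinesin that carries synaptic vesicle precursors along axons (chromosome II, 6994987 to 7010625, plus strand, WBcel235). It was at 39.9 and 58.9 CPM in *mbl-1(tm1563)*, against 63.7 and 72.3 CPM in the wild type. The mutant libraries were both below the lower wild-type library, with a log2 fold change of -0.43 ± 0.28 (SE, n = 2 each, edgeR adjusted p = 0.9999). Next came *unc-18* (chromosome X, 7682896 to 7686037, plus strand, WBcel235), whose product binds syntaxin and is needed for fusion. It was at 98.0 and 127 CPM in *mbl-1(tm1563)*, against 142 and 144 CPM in the wild type (log2 fold change -0.32 ± 0.23, edgeR adjusted p = 0.9999). Without replicate 1 of *mbl-1(tm1563)* the values were -0.06 for *unc-104* and -0.02 for *unc-18*, and without its replicate 2 they were -0.82 and -0.60. These were the 2 genes of the 33 whose mutant libraries both lay below the wild type, a state held by 12% of all genes. The active zone scaffold gene *syd-2* had the third lowest value, -0.15 ± 0.23, with overlapping libraries. The highest values were those of *sng-1*, a vesicle membrane protein, at 6.12 and 8.48 CPM against 4.22 and 4.83 CPM in the wild type (0.72 ± 0.39), *unc-10*, an active zone protein that binds RAB-3 (0.38 ± 0.32), and the potassium channel gene *slo-1* (0.29 ± 0.30). Of these only *sng-1* had both mutant libraries above the wild type, as did 7.87% of all genes, and none passed the test.

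In the *mec-7(u278)* background *mbl-1(tm1563)* again gave 0 calls among the 33 genes, where 0% of 15221 genes were called. DESeq2 called 0 of the 33 as well, and 0.105% of all genes. An unadjusted p under 0.05 was reached by 2 of the 33, *unc-104* and *ric-4*, and by 3.68% of all genes. The median log2 fold change was -0.44 for the 33 genes and -0.05 for all genes, but that of the 33 was 0.02 without replicate 2 of *mec-7(u278)* and -0.83 without replicate 2 of the double mutant. Both double-mutant libraries lay below both *mec-7(u278)* libraries for 11 of the 33 genes, as they did for 23.2% of all genes. By role the median was lowest for dense core vesicles and peptide processing, at -0.79, and highest for vesicle endocytosis, at 0.05.

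Here too *unc-104* was lowest, at 15.3 and 24.1 CPM in the u278 double mutant, against 33.4 and 60.4 CPM in *mec-7(u278)* (log2 fold change -1.24 ± 0.45, edgeR adjusted p = 0.659). The synapsin gene *snn-1* was at 2.78 and 4.10 CPM in the double mutant, against 5.80 and 8.16 CPM in *mec-7(u278)* (-1.01 ± 0.53). The potassium channel gene *shl-1* was at 3.38 and 5.98 CPM, against 7.37 and 9.83 CPM in its *mec-7(u278)* control (-0.87 ± 0.54). The libraries of these genes did not overlap, yet all had an adjusted p of 0.659. The level of *unc-18* was 52.1 and 77.4 CPM in the double mutant, against 95.7 and 134 CPM in *mec-7(u278)* (-0.82 ± 0.36, edgeR adjusted p = 0.659). The SNARE gene *ric-4*, the worm SNAP protein of the plasma membrane, was at 24.0 and 26.1 CPM, against 45.1 and 42.4 CPM in *mec-7(u278)* (-0.80 ± 0.30). At the top were the endocytic adaptor gene *ehs-1* at 0.24 ± 0.28, *unc-57* at 0.09 ± 0.28 and *unc-33*, a neuronal cytoskeleton regulator, at 0.02 ± 0.49. Beside this, oocyte markers were higher in both double-mutant libraries for 7 of 7 genes, with sums of 1969 and 1657 CPM, against 715 and 380 CPM in *mec-7(u278)*, and the germline sums were 1562 and 1113 CPM against 958 and 434 CPM in *mec-7(u278)*. The 12 TRN genes summed to 46.02 and 93.3 CPM in the double mutant and 201 and 397 CPM in *mec-7(u278)*. Somatic marker lists had negative medians too, so a negative median was not particular to neuronal genes. Their median log2 fold changes were -1.11 for hypodermis, -1.07 for pharyngeal muscle, -1.04 for glia, -0.93 for intestine and -0.33 for body wall muscle, with 0 genes called. Most of these markers overlapped between the strains. Both double-mutant libraries were below both controls for 0 of 8 hypodermis and 0 of 5 pharyngeal muscle markers. The same held for 1 of 8 body wall muscle, 1 of 3 glia and 4 of 7 intestine markers, and for 11 of 12 TRN genes. Over all genes the share was 23.2%. The part that these tissues have in the lower neuronal levels was not tested.

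In the *mec-3(unk206)* background the replicates were close and changes could be called. At that threshold 6 of the 33 genes were lower and 1 was higher in the unk206 double mutant than in *mec-3(unk206)*. Over the 15097 genes tested, 21.9% fell and 14.2% rose, so the 18.2% of the 33 that fell was near the background. The median log2 fold change was -0.07 for the 33 genes and -0.01 for all genes. The genes that fell came from 4 roles, and 0 of the endocytosis, dense core vesicle and channel genes passed.

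The largest fall was that of *rgef-1*, at 2.18 and 2.52 CPM in the unk206 double mutant, against 3.37 and 3.52 CPM in *mec-3(unk206)* (log2 fold change -0.78 ± 0.23, edgeR adjusted p = 0.015). For *aex-3* the levels were 8.01 and 9.15 CPM, against 13.4 and 11.4 CPM in *mec-3(unk206)* (-0.67 ± 0.18, adjusted p = 0.00968). The phospholipase gene *egl-8* was at 57.4 and 75.7 CPM, against 101 and 86.7 CPM in *mec-3(unk206)* (-0.64 ± 0.16, adjusted p = 0.00567). All libraries of these genes were lower in the double mutant, and the strains did not overlap. The motor gene *unc-104* was at 14.2 and 20.2 CPM in the unk206 double mutant, against 23.2 and 24.5 CPM in *mec-3(unk206)* (-0.61 ± 0.18, adjusted p = 0.0151). The tomosyn gene *tom-1*, an inhibitor of SNARE assembly, was at 18.1 and 22.04 CPM, against 27.3 and 27.8 CPM in *mec-3(unk206)* (-0.60 ± 0.16, adjusted p = 0.00823). For *unc-18* the levels were 40.6 and 40.1 CPM in the unk206 double mutant, against 57.7 and 52.4 CPM in *mec-3(unk206)* (-0.59 ± 0.14, adjusted p = 0.00453). The single rise was that of *unc-33*, at 34.3 and 33.2 CPM, against 23.6 and 20.9 CPM in *mec-3(unk206)* (0.46 ± 0.15, adjusted p = 0.0274). That call was lost with a replicate block (adjusted p = 0.0774), with no filter on low counts (adjusted p = 0.0591), in the fit of all 16 libraries (adjusted p = 0.348) and without replicate 2 of *mec-3(unk206)* or either replicate of the double mutant (adjusted p between 0.0669 and 0.137).

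The other 26 genes did not pass. Among them the syntaxin gene *unc-64* had a log2 fold change of -0.35 ± 0.15, the ankyrin gene *unc-44* of -0.32 ± 0.14 and the synaptojanin gene *unc-26* of 0.35 ± 0.18. The calcium channel gene *unc-2* had -0.06 ± 0.20, and *snb-1* had 0.02 ± 0.15. Of 12 TRN genes 5 fell and 0 rose in this comparison, with *mec-7* at 8.41 and 7.97 CPM, against 33.7 and 30.7 CPM in *mec-3(unk206)*, a log2 fold change of -2.14 ± 0.17. Of 18 other synaptic and transport genes 4 fell and 2 rose, of 16 transmitter pathway genes tested 4 fell and 1 rose, and of 14 other channel and signalling genes 2 fell and 0 rose. Tissue markers moved in the same libraries. All 7 intestine markers fell, with sums of 7006 and 6019 CPM against 15120 and 10550 CPM in *mec-3(unk206)*, 6 of 8 sperm markers fell, and 7 of 7 oocyte markers and 6 of 8 hypodermis markers rose. Their part in the neuronal calls was not tested. The count of 7 called genes was 4 without replicate 2 of *mec-3(unk206)*, where 27.3% of all genes were called, 1 without replicate 1 of the double mutant, where 28.1% were, and 0 in a fit of all 16 libraries, where 0.18% were. Scaled by library totals, 6 of the 33 fell and 3 rose, and 19.1% of all genes fell and 21.6% rose.

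Over the 3 backgrounds, *unc-104* and *unc-18* were the 2 genes of the 33 that were lower in every *mbl-1(tm1563)* library than in every matching control library, and 0 of the 33 were higher in all. The first state held for 2.58% and the second for 0.78% of the 13853 genes tested in all 3 comparisons. The log2 fold changes of *unc-104* were -0.43 in the wild-type, -1.24 in the *mec-7(u278)* and -0.61 in the *mec-3(unk206)* background, and those of *unc-18* were -0.32, -0.82 and -0.59. The differences between backgrounds were tested as interaction terms, with 0 of the 33 called against either background and a lowest adjusted p of 0.908 for *mec-7(u278)* and 0.503 for *mec-3(unk206)*. An unadjusted p under 0.05 was reached by 0 and 2 of the 33, against 1.67% and 9.14% of all genes, DESeq2 called 0 in both, and 0% and 0.0192% of all genes were called. For *unc-104* the difference between the *mec-7(u278)* and the wild-type background was -0.79 ± 0.56 (SE), and that between the *mec-3(unk206)* and the wild-type background was -0.15 ± 0.33, so it is not shown that the backgrounds acted alike. In 1 fit of all 12 libraries with background and *mbl-1* as terms, added after the data were seen, *unc-104* had a log2 fold change of -0.73 ± 0.22 (edgeR adjusted p = 0.296) and *unc-18* one of -0.54 ± 0.15 (edgeR adjusted p = 0.268). That fit called 0 of the 33 genes and 0.0313% of 15994 genes, namely 0.025% as lower and 0.00625% as higher, 3 of the 33 and 13.2% of all genes had an unadjusted p under 0.05, and DESeq2 called 1 of the 33, *unc-18* (-0.54, DESeq2 adjusted p = 0.0244), and 2.21% of all genes.

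**Figure D2:**
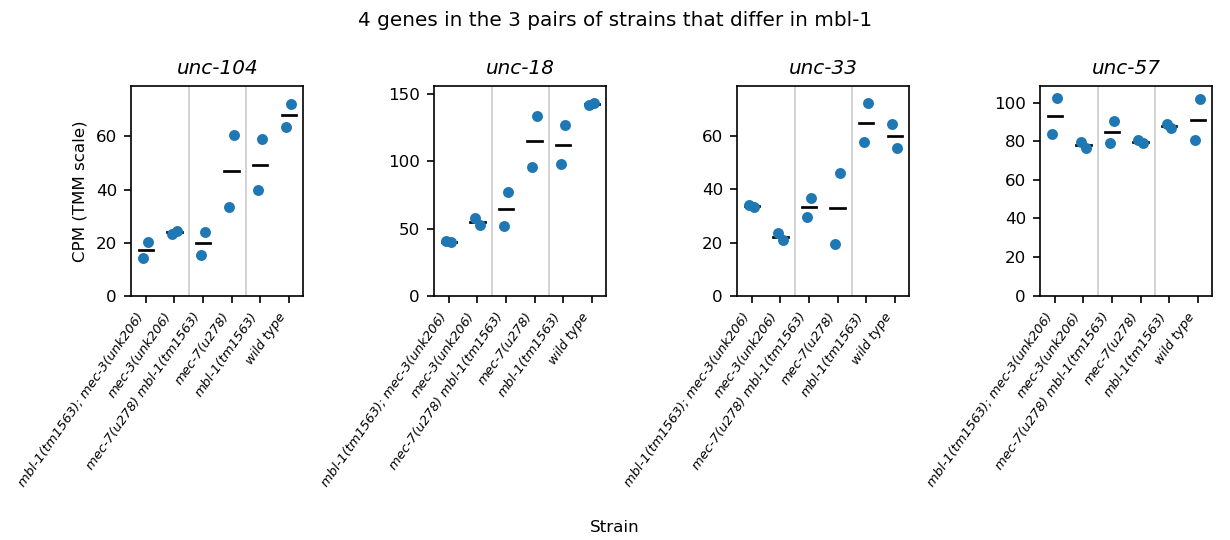
Level (CPM on the common TMM scale) of *unc-104*, *unc-18*, *unc-33* and *unc-57* in the 3 pairs of strains that differ in *mbl-1*, with each *mbl-1(tm1563)* strain left of its control. Points are libraries (n = 2 per strain) and horizontal lines are means. The points of *unc-104* and *unc-18* lie below both control points in every pair, those of *unc-33* lie above them with *mec-3(unk206)*, and those of *unc-57* lie between 76.3 and 102 CPM in all 6 strains.

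The second question was whether *mec-7(u278)*, an allele with hyperstable microtubules, changed these genes. Against the wild type, *mec-7(u278)* gave 0 calls among the 33 genes, and 0.0204% of 14710 genes were called. DESeq2 also called 0 of the 33, and 0.625% of all genes. An unadjusted p under 0.05 was reached by 0 of the 33 and 7.05% of all genes. The median log2 fold change was -0.36 for the 33 genes and 0.004 for all genes, and the *mec-7(u278)* libraries were both below the lower wild-type library for 19 of the 33 genes, as they were for 23.6% of all genes. Without replicate 2 of *mec-7(u278)* the median was -0.98.

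The lowest values were those of *rgef-1* at 2.86 and 7.18 CPM in the *mec-7(u278)* libraries, against 10.2 and 8.42 CPM in the wild type (log2 fold change -0.88 ± 0.56), *ida-1*, a membrane protein of dense core vesicles, at 76.6 and 147 CPM, against 213 and 198 CPM in the wild type (-0.87 ± 0.40), and *unc-33* at 19.6 and 46.3 CPM, against 64.7 and 55.6 CPM in the wild type (-0.86 ± 0.45). For each of these both mutant libraries lay below the wild type but far from each other, and none passed the test. The highest values were *sng-1* at 0.20 ± 0.46, *unc-119* at 0.15 ± 0.36 and *snb-1* at 0.03 ± 0.27, all with overlapping libraries. The summed levels of 8 hypodermis markers were 1889 and 3840 CPM in the *mec-7(u278)* libraries, against 8464 and 4670 CPM in the wild type, and those of the 7 oocyte markers were 715 and 380 CPM, against 63.5 and 323 CPM in the wild type. The part of these tissues was not tested.

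The same allele was also compared in animals that lack *mbl-1*. The u278 double mutant had a median log2 fold change of -0.94 against *mbl-1(tm1563)* over the 33 genes, and 0.02 over all genes. Both double-mutant libraries lay below both *mbl-1(tm1563)* libraries for 29 of the 33 genes, and for 36.6% of all genes. Even so 0 of the 33 and 0% of 15086 genes were called, and DESeq2 called 0 of the 33 and 1.99% of all genes. An unadjusted p under 0.05 was reached by 10 of the 33 and by 15.2% of all genes. A fit of all 16 libraries with 1 shared estimate of the spread called 19 of the 33 and 37% of all genes. The difference from the comparison with the wild type is the interaction term given above, with 0 of the 33 called, so it is not shown that *mec-7(u278)* acted more strongly without *mbl-1*.

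Of the 4 genes of dense core vesicles and peptides, 3 had the lowest values of the 33, and *unc-31* had -0.35 ± 0.44. In the double mutant *ida-1* was at 43.6 and 82.5 CPM, against 159 and 266 CPM in *mbl-1(tm1563)* (log2 fold change -1.698 ± 0.47, edgeR adjusted p = 0.308). For *egl-21* the levels were 57.8 and 109 CPM, against 222 and 334 CPM in *mbl-1(tm1563)* (-1.68 ± 0.44, adjusted p = 0.308), and for *egl-3* they were 62.1 and 95.6 CPM, against 169 and 300 CPM in *mbl-1(tm1563)* (-1.51 ± 0.42, adjusted p = 0.308). The libraries of these 3 genes did not overlap between the strains, and none passed the test. At the other end *unc-57* was at 78.9 and 90.5 CPM in the double mutant, against 88.8 and 86.9 CPM in *mbl-1(tm1563)* (0.01 ± 0.21), with -0.10 ± 0.22 for *unc-76* and -0.13 ± 0.45 for *unc-119*. Germline markers moved the other way in these libraries, with sums of 1562 and 1113 CPM in the double mutant, against 738 and 103 CPM in *mbl-1(tm1563)*, while the 8 hypodermis markers summed to 186 and 2539 CPM, against 5112 and 6495 CPM in *mbl-1(tm1563)*. Their part in the lower neuronal levels was not tested. The 2 comparisons with *mec-7(u278)* and those with *mbl-1(tm1563)* share libraries, so they are not independent of each other.

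The third question was how neuronal genes outside the TRN programme differed between strains with different *mec-3* alleles. In the null mutant *mec-3(u184)*, 11 of the 33 genes were higher than in *mec-3(unk206)* and 0 were lower. Of 15040 genes tested, 14.6% rose and 12% fell. The median log2 fold change was 0.20 for the 33 genes and -0.003 for all genes. In the same libraries 8 of the 12 TRN genes fell and 0 rose, with a median of -1.84. Of the genes that rose, 3 were channels, 3 acted on dense core vesicles, 3 on transport or the cytoskeleton and 2 at the active zone, while 0 of 8 SNARE genes and 0 of 4 endocytosis genes passed.

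The largest rise was that of *slo-1*, a calcium-activated potassium channel, at 13.5 and 14.1 CPM in *mec-3(u184)*, against 8.87 and 8.12 CPM in *mec-3(unk206)* (log2 fold change 0.66 ± 0.14, edgeR adjusted p = 0.00855). For *syd-2*, a liprin of the active zone, the levels were 17.2 and 18.9 CPM, against 11.7 and 11.8 CPM in *mec-3(unk206)* (0.59 ± 0.13, adjusted p = 0.0115). The presynaptic calcium channel gene *unc-2* was at 22.9 and 20.4 CPM, against 15.68 and 12.6 CPM in *mec-3(unk206)* (0.57 ± 0.14, adjusted p = 0.0184). These genes separated the strains in every library. The level of *unc-10* was 8.35 and 8.39 CPM in *mec-3(u184)*, against 5.995 and 5.22 CPM in *mec-3(unk206)* (0.55 ± 0.16, adjusted p = 0.0338), that of *egl-21* was 105 and 108 CPM, against 77.2 and 66.5 CPM in *mec-3(unk206)* (0.53 ± 0.11, adjusted p = 0.00754), and that of *unc-33* was 33.3 and 31.6 CPM, against 23.6 and 20.9 CPM in *mec-3(unk206)* (0.51 ± 0.12, adjusted p = 0.0131). The other genes that rose were *egl-3*, *unc-104*, *cca-1*, *ida-1* and *unc-44*, with log2 fold changes from 0.38 to 0.50. The lowest value was that of *unc-57*, at 66.2 and 65.2 CPM in *mec-3(u184)*, against 79.7 and 76.3 CPM in *mec-3(unk206)* (-0.28 ± 0.09, adjusted p = 0.0558).

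Body wall muscle, hypodermis and glia markers were higher in the same libraries. Of 8 body wall muscle markers 6 rose, with sums of 8901 and 8573 CPM in *mec-3(u184)*, against 5915 and 5431 CPM in *mec-3(unk206)*, and 7 of 8 hypodermis markers rose, with 1602 and 1314 CPM against 485 and 377 CPM in *mec-3(unk206)*. All 3 glia markers tested rose, and the 4 listed summed to 25.04 and 27.9 CPM in *mec-3(u184)*, against 15.03 and 14.97 CPM in *mec-3(unk206)*. Of 7 oocyte markers 3 fell, and of 8 germline markers 2 fell, with 1403 and 1318 CPM against 1683 and 1540 CPM in *mec-3(unk206)*. Their part in the rise of the neuronal genes was not tested, nor was that of the reporter insertion. The count of 11 was 3 without replicate 1 of *mec-3(u184)*, where 14.5% of all genes were called, 2 without its replicate 2, where 13.6% were, and 0 in the fit of all 16 libraries, where 0.106% were. Scaled by library totals, 7 of the 33 rose and 1 fell, and 10.7% of all genes rose and 20.4% fell.

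In *mec-3(syb8382)* most TRN genes and 1 of the synaptic genes were lower than in *mec-3(unk206)*. Here 11 of 12 TRN genes fell, with a median log2 fold change of -1.72, while 1 of the 33 genes fell and 0 rose, and 8.17% of 14848 genes fell and 5.33% rose. The median over the 33 genes was -0.03, and that over all genes was -0.015. The gene that fell was *tom-1*, at 20.2 and 20.9 CPM in *mec-3(syb8382)*, against 27.3 and 27.8 CPM in *mec-3(unk206)* (-0.46 ± 0.12, edgeR adjusted p = 0.0344). The count was 0 with DESeq2, where 11.3% of all genes were called, and 0 in the fit of all 16 libraries, where 0.0311% were. It was also 0 without either replicate of *mec-3(syb8382)* or without replicate 2 of *mec-3(unk206)*, where between 6.65% and 11.3% were called, and 6 without replicate 1 of *mec-3(unk206)*, where 15.2% were. Next lowest were *aex-3* at -0.38 ± 0.16 and *shl-1* at -0.37 ± 0.22, and highest were *unc-33* at 0.45 ± 0.14 (adjusted p = 0.0523), *unc-26* at 0.35 ± 0.16 and *snn-1* at 0.31 ± 0.22. All 7 oocyte markers rose, with sums of 2408 and 2454 CPM in *mec-3(syb8382)*, against 1456 and 1195 CPM in *mec-3(unk206)*, and 5 of 8 body wall muscle markers rose. Their part was not tested.

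The comparison of *mec-3(syb8382)* with *mec-3(u184)* holds the reporter insertion constant, and it shares libraries with both comparisons above. It gave the most calls of the 4 comparisons within the *mec-3* strains. In *mec-3(syb8382)* 19 of the 33 genes were lower and 4 were higher than in *mec-3(u184)*, where 22.7% of 14897 genes fell and 23.3% rose. The median log2 fold change was -0.36 for the 33 genes and -0.04 for all genes. All 4 channels and all 4 genes of dense core vesicles and peptide processing fell, as did 4 of 6 vesicle and active zone genes and 4 of 8 SNARE genes. In contrast 3 of 4 endocytosis genes rose, together with *unc-76*.

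The largest fall was that of *shl-1*, at 3.13 and 2.65 CPM in *mec-3(syb8382)*, against 4.78 and 5.69 CPM in *mec-3(u184)* (log2 fold change -0.87 ± 0.19, edgeR adjusted p = 0.0119). For *slo-1* the levels were 8.68 and 8.84 CPM, against 13.5 and 14.1 CPM in *mec-3(u184)* (-0.65 ± 0.11, adjusted p = 0.0048), and for *unc-10* they were 5.60 and 5.30 CPM, against 8.35 and 8.39 CPM in *mec-3(u184)* (-0.62 ± 0.14, adjusted p = 0.0114). The strains did not overlap for these 3 genes. The dense core vesicle genes *unc-31* and *ida-1* were at 5.24 and 5.39 CPM, against 7.45 and 8.47 CPM in *mec-3(u184)* (-0.59 ± 0.15, adjusted p = 0.0201), and at 61.5 and 52.3 CPM, against 85.9 and 82.3 CPM in *mec-3(u184)* (-0.56 ± 0.09, adjusted p = 0.00312). The priming factor gene *unc-13* was at 20.8 and 20.5 CPM, against 31.3 and 29.5 CPM in *mec-3(u184)* (-0.55 ± 0.08, adjusted p = 0.00274). On the other side *unc-57* was at 82.2 and 86.9 CPM in *mec-3(syb8382)*, against 66.2 and 65.2 CPM in *mec-3(u184)* (0.36 ± 0.06, adjusted p = 0.00505), and *ehs-1* was at 55.4 and 51.5 CPM, against 42.3 and 43.9 CPM in *mec-3(u184)* (0.31 ± 0.07, adjusted p = 0.0114). The clathrin assembly gene *unc-11* and *unc-76* rose by 0.25 ± 0.06 and 0.26 ± 0.06 on the log2 scale (adjusted p = 0.0135 and 0.0161).

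Germline and oocyte markers were higher and hypodermis, intestine and glia markers lower in the same libraries. All 8 germline markers rose, with sums of 1995 and 2029 CPM in *mec-3(syb8382)*, against 1403 and 1318 CPM in *mec-3(u184)*, all 7 oocyte markers rose, all 7 intestine markers fell, and 7 of 8 hypodermis markers fell, with 542 and 339 CPM against 1602 and 1314 CPM in *mec-3(u184)*. All 3 glia markers tested fell, and the 4 listed summed to 16.1 and 12.1 CPM in *mec-3(syb8382)*, against 25.04 and 27.9 CPM in *mec-3(u184)*. Their part in the neuronal calls was not tested. Of the 9 TRN genes that could be tested 3 fell, with a median of -0.08. The 12 TRN genes listed summed to 61.9 and 54.7 CPM in *mec-3(syb8382)* and 69.2 and 73.4 CPM in *mec-3(u184)*. In *mec-3(unk206)* they summed to 129 and 128 CPM. With TRN genes already low in both strains, their count cannot be set against the 19 of 33 genes. The count of 23 called genes was 15 with DESeq2, where 33.8% of all genes were called, and 15 in a fit of the 8 strand-specific libraries, where 36.7% were. It was 12 without replicate 1 and 10 without replicate 2 of *mec-3(u184)*, where 29.4% and 25.6% were, and 0 in the fit of all 16 libraries, where 0.0498% were.

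**Figure D3:**
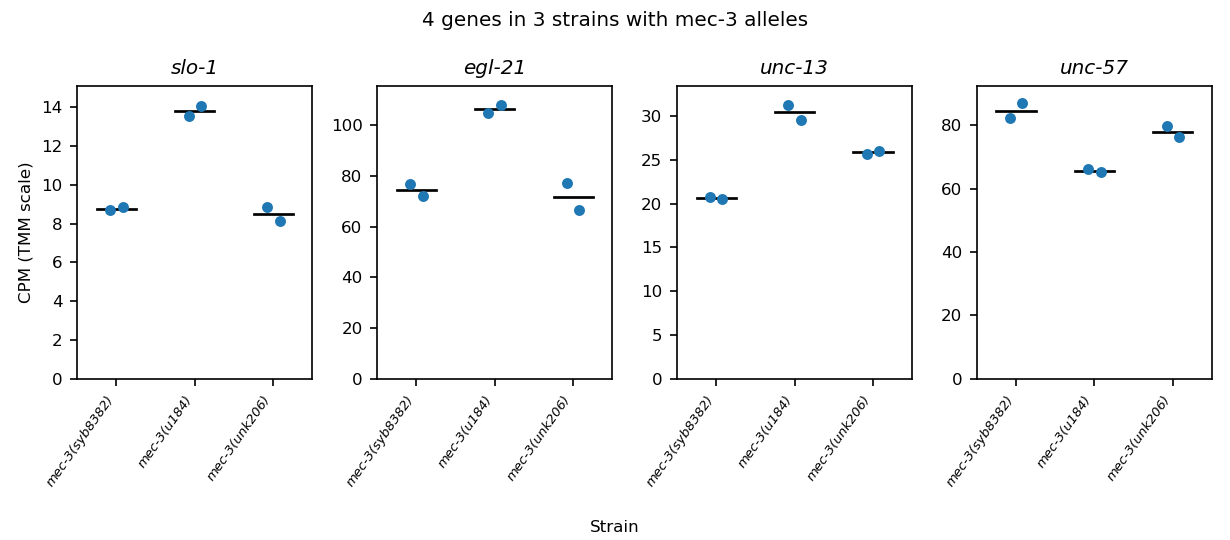
Level (CPM on the common TMM scale) of *slo-1*, *egl-21*, *unc-13* and *unc-57* in *mec-3(syb8382)*, *mec-3(u184)* and *mec-3(unk206)*. Points are libraries (n = 2 per strain) and horizontal lines are means. The first 3 genes were highest in *mec-3(u184)*, the middle strain, and *unc-57* was lowest there.

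The last comparison set *mec-3(unk206)* against the wild type, where the allele and the kind of library cannot be told apart. All 33 genes had a negative log2 fold change, as had 51.2% of all genes, with a median of -1.26 against -0.04 for all genes, and both *mec-3(unk206)* libraries lay below both wild-type libraries for 32 of them, as for 42.4% of all genes. Of the 33, 23 fell and 0 rose, where 30.3% of 15124 genes fell and 31.9% rose. Every channel fell, as did 5 of 6 vesicle and active zone genes, 5 of 8 SNARE genes, 3 of 4 dense core vesicle genes and 3 of 4 transport and cytoskeleton genes, but 1 of 4 endocytosis genes. Scaled by library totals alone, 26 of the 33 genes were lower and 7 higher, 21 fell and 0 rose, and the median was -0.90 against 0.32 for all genes, of which 20.7% fell and 39.2% rose.

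The largest fall was that of *syd-2*, at 11.7 and 11.8 CPM in *mec-3(unk206)*, against 44.3 and 40.4 CPM in the wild type (log2 fold change -1.80 ± 0.19, edgeR adjusted p = 0.00154). For *egl-21* the levels were 77.2 and 66.5 CPM, against 267 and 240 CPM in the wild type (-1.77 ± 0.21, adjusted p = 0.00165), and for *ida-1* they were 64.7 and 57.6 CPM, against 213 and 198 CPM in the wild type (-1.698 ± 0.20, adjusted p = 0.00161). The falls of *unc-10*, *rab-3* and *aex-3* were -1.68 ± 0.24, -1.59 ± 0.19 and -1.57 ± 0.22 (adjusted p = 0.00238, 0.00178 and 0.00231). The genes that did not pass included *snb-1* at -0.36 ± 0.20, *cpx-1*, which codes for the fusion clamp complexin, at -0.35 ± 0.22, *ehs-1* at -0.32 ± 0.18 and *unc-76* at -0.12 ± 0.17. Of its exon bases, *rab-3* has 7.53% that overlap exons on the other strand and *unc-2* has 4.78%, so their unstranded counts are less certain. In the strand-specific libraries *ehs-1* had 4.77% of its stranded counts on the antisense strand and the other 32 genes at most 1.24%.

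Other neuronal lists were tested in the same comparison. Of 18 other synaptic and transport genes 15 fell and 0 rose, of 14 other channel and signalling genes 11 fell and 0 rose, of 15 transmitter pathway genes tested 6 fell and 2 rose, and of 12 TRN genes 11 fell. The 17 transmitter pathway genes listed summed to 275.6 and 298 CPM in *mec-3(unk206)*, against 210.2 and 223 CPM in the wild type. Yet the median log2 fold change of the 15 tested was -0.74, with 9 negative and 6 positive values and the highest at 3.86. Non-neuronal lists split. All 8 hypodermis markers fell, with sums of 485 and 377 CPM in *mec-3(unk206)*, against 8464 and 4670 CPM in the wild type, and 6 of 7 intestine markers fell, while all 8 germline, all 8 sperm and all 7 oocyte markers rose, the oocyte markers to 1456 and 1195 CPM, against 63.5 and 323 CPM in the wild type. The hypodermis list holds *dpy-7*, *rol-6*, *sqt-1*, *sqt-3*, *dpy-10*, *dpy-13*, *bli-1* and *elt-3*. Its log2 fold changes ran from -4.595 to -0.526, so its sum does not measure the amount of hypodermis. All 3 glia markers tested fell, and *hlh-17*, which could not be tested, had 0 reads in the wild type. The part of these lists in the neuronal values was not tested. Without replicate 1 of *mec-3(unk206)* 13 of the 33 and 25% of all genes were called, and without its replicate 2 the call was made for 5 of the 33 and 19.5% of all genes.

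**Figure D4:**
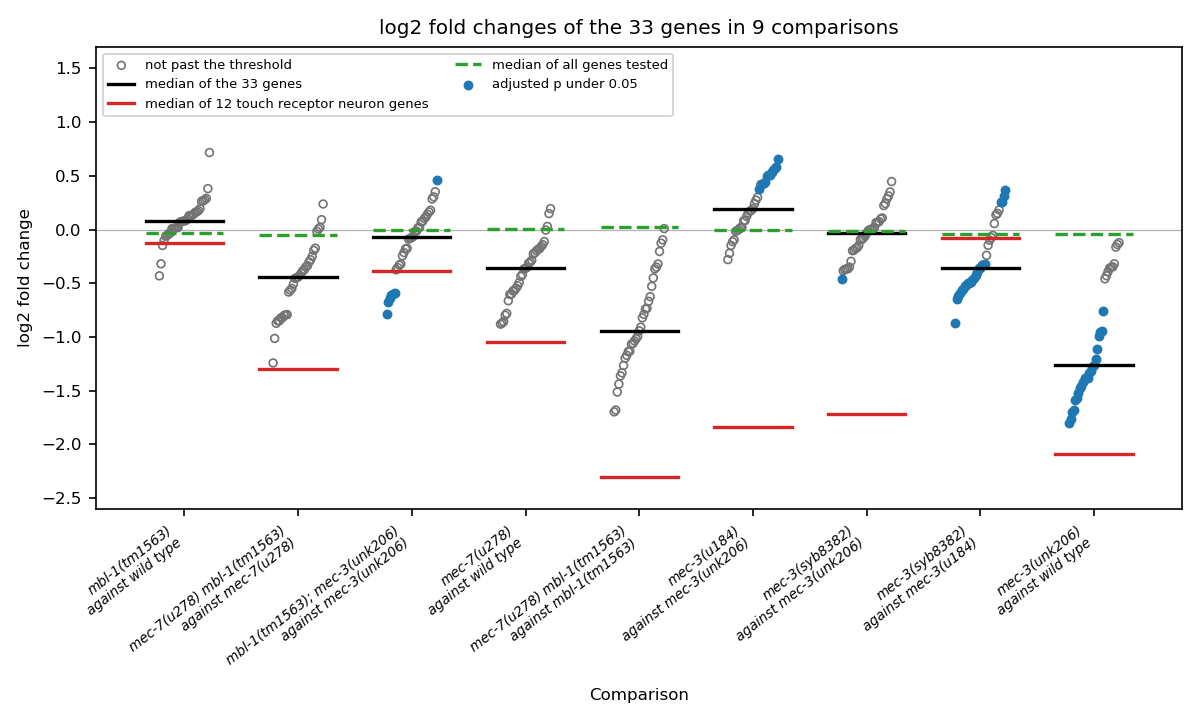
log2 fold changes of the 33 genes (points, sorted within each comparison) in the 9 comparisons, with filled points for an adjusted p under 0.05 and horizontal lines for the medians of the 33 genes, of the 12 TRN genes (9 where *mec-3(syb8382)* is set against *mec-3(u184)*) and of all genes tested. The TRN median lay at -1.84 and -1.72 in the comparisons of *mec-3(u184)* and *mec-3(syb8382)* with *mec-3(unk206)*, where the median of the 33 genes was 0.20 and -0.03.

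**Figure D5:**
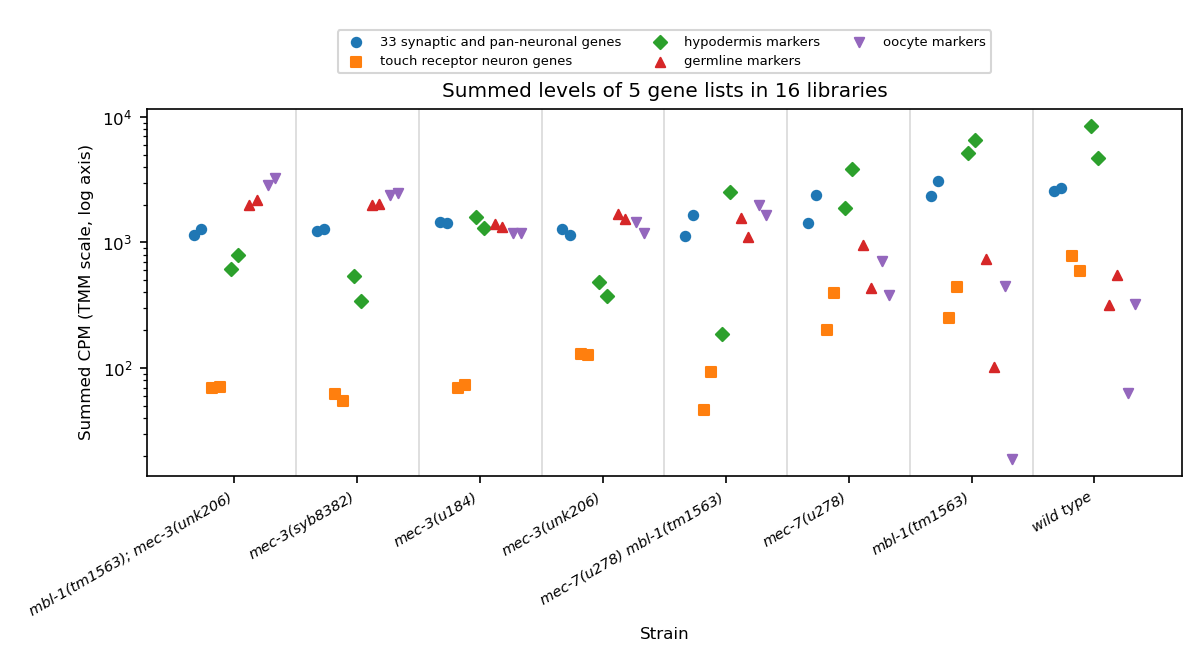
Summed level (CPM on the common TMM scale, log axis) of the 33 genes, 12 TRN genes and the hypodermis, germline and oocyte markers in each of the 16 libraries, by strain. The 33 genes summed to between 1127 and 3076 CPM, and the oocyte markers to between 18.9 and 3240 CPM, with the lowest oocyte sum in the *mbl-1(tm1563)* library that had the highest sum of the 33 genes.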

How the data were processed

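RNA-seq of whole L4 animals was analysed for 8 strains with 2 libraries each. The authors mapped reads with STAR 2.7.10 to WBcel235, and the deposited files hold its raw gene counts, unstranded and for each strand. Rows that name no gene held between 5.91% and 8.16% of reads and were left out. All 16 tables were used, with 0 unused columns. The labels call every library strand-specific, but the strand columns of 8 are balanced, so unstranded counts were used, except within the *mec-3* strains, where second-strand counts were used.

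Each comparison of 2 against 2 libraries was fitted across all genes with edgeR 4.0.16 (TMM, filterByExpr, quasi-likelihood test) in R 4.3.3, and p-values were adjusted by Benjamini-Hochberg over all genes tested, with a threshold of 0.05. Fold changes come from these fits and may differ from the ratio of printed CPM by up to 0.23 (log2). Libraries were called non-overlapping on the scale of each fit. Standard errors are on the log2 scale. With 2 libraries a group, an exact permutation test cannot go below p = 0.33. The study names the 2 libraries biological replicates.

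Alternatives were DESeq2 1.42.0, RLE size factors, no filter or a minimum of 10 counts per library, the other strand choice, fits over 8 or 16 libraries, a replicate block and leaving out each library. Every member is named with its range. In each comparison up to 6 genes that passed in each direction are given with values, or the 3 highest and 3 lowest fold changes where fewer than 3 passed, and any others were chosen after their values were seen. The members and the 12 other gene lists were chosen with earlier results of these data known. The fits of some comparisons were also run on simulated counts with planted changes larger than most reported here. That run does not show how well smaller changes are called.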

Additional observations from a re-analysis of the deposited data

Results flagged for a closer look

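The potassium channel gene *shl-1* went opposite ways with loss of *mbl-1* in 2 backgrounds. With *mec-7(u278)* both double-mutant libraries were lower, at 3.38 and 5.98 CPM, against 7.37 and 9.83 CPM in *mec-7(u278)*, a log2 fold change of -0.87. With *mec-3(unk206)* both were higher, at 4.65 and 4.27 CPM in the unk206 double mutant, against 3.49 and 3.71 CPM in *mec-3(unk206)*, a log2 fold change of 0.16. Neither value passed edgeR's test, with adjusted p of 0.659 and 0.583, and the difference between these backgrounds was not tested.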

How the results depend on the processing

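Of 66 values for single genes, 23 kept their direction and side of the threshold in every alternative run, 26 lost a call in at least 1, 6 gained one and 11 changed sign. Counted over each result and alternative, 140 counts of called genes stayed within 1.5 times and 25 did not, and 146 medians moved by less than the replicate spread and 19 by more. Scaling by library totals and the fit over 12 libraries were chosen after seeing the data. Where no cause is named, the cause was not tested.

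One fit over 16 libraries called 0 genes in the unk206 double mutant against *mec-3(unk206)*, 0 in *mec-3(u184)* and 0 in *mec-3(syb8382)* against *mec-3(unk206)*, 0 in *mec-3(syb8382)* against *mec-3(u184)*, and 19 in the u278 double mutant against *mbl-1(tm1563)*. For *mec-3(syb8382)* against *mec-3(unk206)* the count was 0 with DESeq2, 2 with RLE size factors, 3 in the fit over 8 libraries and 3 by library totals. In that order, 11.3%, 14.1%, 16.7% and 14.3% of all genes were called. For *mec-3(syb8382)* against *mec-3(u184)* it was 15 with DESeq2 and 15 in the fit over 8 libraries, and over the 3 *mbl-1* backgrounds DESeq2 called 1. Leaving out 1 library gave 1 to 7 calls in the unk206 double mutant, 2 to 15 in *mec-3(u184)* and 0 to 6 in *mec-3(syb8382)* against *mec-3(unk206)*, 10 to 23 in *mec-3(syb8382)* against *mec-3(u184)*, and 5 to 24 in *mec-3(unk206)* against the wild type. With fewer libraries the fit has fewer degrees of freedom.

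Library totals in place of TMM moved the median of all genes by 0.365 in *mec-3(unk206)* against the wild type and by -0.127 to 0.299 in the other pairs of strains. They gave medians of 0.067 for *mec-3(u184)* and -0.155 for *mec-3(syb8382)* against *mec-3(unk206)*, -0.362 for *mec-3(syb8382)* against *mec-3(u184)* and -0.896 for *mec-3(unk206)* against the wild type, and one of 0.026 for the unk206 double mutant against *mec-3(unk206)*. For *mec-3(unk206)* against the wild type it was -1.172 with at least 10 counts in every library and -1.152 with the other count column. For *mec-3(syb8382)* against *mec-3(u184)* the median was -0.333 with RLE size factors, DESeq2 or 8 libraries, -0.344 with no filter and -0.37 with at least 10 counts, and -0.401 to -0.327 without 1 library. Leaving out 1 library gave -0.21 to 0.384 where *mbl-1(tm1563)* was set against wild type, -0.828 to 0.018 for the u278 double mutant against *mec-7(u278)*, -0.975 to -0.131 for *mec-7(u278)* against the wild type, -0.096 to 0.06 for *mec-3(syb8382)* against *mec-3(unk206)*, -0.875 to 0.004 for the *mbl-1* difference between *mec-7(u278)* and the wild type, and -0.446 to 0.067 for that between *mec-3(unk206)* and the wild type.

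Signs changed only in genes that had not passed. Without 1 library, *mbl-1(tm1563)* against the wild type gave *syd-2* -0.388 to 0.121 and *slo-1* -0.092 to 0.656. The u278 double mutant against *mec-7(u278)* gave *unc-33* -0.429 to 0.781 and *unc-57* -0.019 to 0.185, and *unc-33* was -0.036 with the other count column. In *mec-7(u278)* against the wild type, *snb-1* was -0.016 with that column and -0.105 to 0.115 without 1 library, with -0.038 to 0.368 for *unc-119* and -0.088 to 0.388 for *sng-1*. Against *mbl-1(tm1563)*, the double mutant gave *unc-57* -0.002 with no filter, -0.023 with the other column, -0.029 with 8 and -0.053 with 16 libraries, and -0.122 to 0.052 without 1. There *unc-119* was 0.019 and *unc-76* 0.044 with at least 10 counts, 0.186 and 0.205 by library totals, and *unc-119* -0.395 to 0.147 without 1 library. The *unc-104* difference between *mec-3(unk206)* and the wild type ran from -0.382 to 0.128.

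The labels pair no libraries, and replicate numbers come from file names alone. With a replicate block the counts were 6 called genes in the unk206 double mutant against *mec-3(unk206)*, where *unc-33* was lost, 11 in *mec-3(u184)* and 2 in *mec-3(syb8382)* against *mec-3(unk206)*, 21 in *mec-3(syb8382)* against *mec-3(u184)*, 23 in *mec-3(unk206)* against the wild type, and 0 in the others. In that order, 30.7%, 30.8%, 20.4%, 37.8% and 57.5% of all genes were called, and at most 0.0136% in the other pairs of strains. Deviations of same-numbered libraries correlated between -0.417 and 0.429 over 11420 genes. With 2 libraries a strain, absence of a call says little about absence of a change.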
